A study of Homo sapiens with 12 samples.

Results

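CDKN1A, PLK3, SESN1 and TOB1 are genes that restrain cell growth, and their ratios of drug-treated over untreated RNA were compared between 5 drugs in H460 cells. They were taken by symbol from the annotation of the arrays and are 4 of 5499 named genes, with 1 probe each. They were chosen by their ratios of drug over untreated RNA on these same arrays, so those ratios are given as a description and carry no test. H460 is a human lung cancer line with wild-type p53, and every culture was of that line. Per the labels, cells received 5 µM cisplatin, 1 µM 5-fluorouracil (5-FU), 0.2 µM cytarabine, 5 nM paclitaxel or 0.2 µM cytochalasin D for 24 h, and each was set against untreated H460 cells on two-channel arrays. The labels do not say whether untreated cells had a vehicle, whether replicates are separate cultures or whether drugs share untreated RNA, so p-values measure only the spread between arrays, which may be technical.

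p53 is a transcription factor that accumulates after DNA damage and switches on genes that halt the cell cycle, repair DNA or trigger death. CDKN1A encodes p21, which binds and inhibits cyclin-dependent kinases and is the classical p53-dependent brake on entry into S phase. PLK3 is a stress-responsive kinase of the Polo-like family, SESN1 is a sestrin that restrains the growth kinase complex mTORC1, and TOB1 is an antiproliferative protein of the TOB/BTG family that recruits the CCR4-NOT deadenylase to messenger RNA. Cisplatin crosslinks DNA, 5-FU blocks thymidylate synthesis and enters RNA and DNA, cytarabine stops DNA chains from growing, paclitaxel stabilises microtubules and cytochalasin D caps actin filaments.

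The start regions of the 4 genes are shown because 3 of them read high together in cisplatin while TOB1 did not. Each is the window from 250 bases before to 50 bases after a RefSeq start on GRCh38.p14, 5′ to 3′ on the gene's strand. RefSeq gives 1 window for CDKN1A, 1 for PLK3, 3 for SESN1 and 2 for TOB1. The windows shown for SESN1 and TOB1 were chosen after the motif search, the first for its p53 half-site and the second for its GC boxes. Capitals mark GC boxes (GGGCGG on either strand) and the p53 half-site.
CDKN1A, chr6:36678464-36678763, plus strand: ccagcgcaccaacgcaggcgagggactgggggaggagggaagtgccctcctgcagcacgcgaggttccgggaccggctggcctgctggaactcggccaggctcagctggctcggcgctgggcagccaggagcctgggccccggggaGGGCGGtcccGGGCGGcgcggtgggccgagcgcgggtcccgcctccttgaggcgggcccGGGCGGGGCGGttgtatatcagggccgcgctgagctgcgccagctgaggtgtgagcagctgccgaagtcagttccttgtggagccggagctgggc
PLK3, chr1:44800127-44800426, plus strand: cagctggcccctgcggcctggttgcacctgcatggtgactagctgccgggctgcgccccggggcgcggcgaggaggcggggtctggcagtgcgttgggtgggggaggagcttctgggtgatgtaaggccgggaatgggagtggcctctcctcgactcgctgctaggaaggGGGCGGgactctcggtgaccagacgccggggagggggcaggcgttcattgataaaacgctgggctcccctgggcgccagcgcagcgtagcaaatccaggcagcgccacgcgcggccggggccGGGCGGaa
SESN1, chr6:109008939-109009238, minus strand: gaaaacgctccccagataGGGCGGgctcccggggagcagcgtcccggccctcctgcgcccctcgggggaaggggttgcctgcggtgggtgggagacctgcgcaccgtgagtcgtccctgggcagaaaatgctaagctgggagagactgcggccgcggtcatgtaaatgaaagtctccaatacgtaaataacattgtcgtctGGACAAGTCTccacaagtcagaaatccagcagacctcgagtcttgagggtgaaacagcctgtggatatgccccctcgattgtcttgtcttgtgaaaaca
TOB1, chr17:50866305-50866604, minus strand: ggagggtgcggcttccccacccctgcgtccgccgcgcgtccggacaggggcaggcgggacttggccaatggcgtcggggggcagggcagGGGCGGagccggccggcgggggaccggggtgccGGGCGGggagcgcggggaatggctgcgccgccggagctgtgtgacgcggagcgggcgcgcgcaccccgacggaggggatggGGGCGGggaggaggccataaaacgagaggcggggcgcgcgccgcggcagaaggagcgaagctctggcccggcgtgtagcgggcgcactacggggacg

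GC boxes numbered 4 in the CDKN1A window, overlapping matches counted singly, 2 in PLK3, 1 in the SESN1 window shown and 3 in the TOB1 window shown, and 45% of 35116 RefSeq windows hold at least 1. A match to the p53 half-site, searched on both strands by its consensus, was found in 1 of the 7 windows of the 4 genes, at SESN1 with the letters GGACAAGTCT. Of all windows 6.63% hold such a match. The letters TATAAA were in 0 of the 7 windows and in 11.5% of all windows. The SESN1 windows not shown hold 8 and 5 GC boxes, and the other TOB1 window 0. These are matches of letters in short windows and say nothing of binding.

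The series holds 12 arrays. Treated RNA was in channel 1 on 2 arrays of each drug, and 5-FU has 2 further arrays with treated RNA in channel 2. Values are log ratios of the channels, taken as base 2 and centred array by array on the median of all features. Neither the base nor the numerator is stated. The direction was set by 1 sign for all arrays such that MDM2, the ubiquitin ligase that limits p53, and the median of 18 p53 targets, MDM2 included, were positive in 5-FU. The 4 genes had no part in that choice. The opposite numerator would turn every sign below, and a natural logarithm would enlarge every fold. The 5-FU arrays lacked values for 21.5 to 46.7% of probes, against 6.44 to 14.5% on the arrays of the other drugs. Ratios carry no expression level, so neither the identity of the cells nor signal over background could be read from them.

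CDKN1A read far above 0 in cisplatin and 5-FU and near 0 with the other drugs. Its log ratio of drug over untreated was 3.12 and 4.20 on the cisplatin arrays and 2.41 and 2.57 on the 5-FU arrays with treated RNA in channel 1, while both 5-FU arrays of the other orientation had no value. In cytarabine it was 0.19 and 0.21, in paclitaxel 0.24 and 0.18, and in cytochalasin D 0.12 and 0.14. All 4 arrays of cisplatin and 5-FU lay above all 6 arrays of the remaining drugs, and the cisplatin arrays lay above the 5-FU arrays. By its mean, 3.66 ± 0.76 (SD, n = 2), CDKN1A ranked 1 of 7332 features in cisplatin, and with 2.49 ± 0.11 (SD, n = 2) it ranked 1 of 6251 in 5-FU. These means are 12.6-fold and 5.61-fold on a log2 scale. The 2 cisplatin arrays of CDKN1A stand further apart than most features there, whose absolute difference between both arrays had a median of 0.124.

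PLK3 read high in cisplatin, with log ratios of 2.04 and 2.02. It had no value on any of the 4 5-FU arrays, so nothing can be said of it for that drug. Of all 7739 features, 17.0% likewise had no 5-FU value. On the single cytarabine array with a value PLK3 read −0.31, in paclitaxel it read 0.20 and 0.15, and in cytochalasin D −0.12 and −0.15. The cisplatin arrays lay above the other 5 arrays with a value, and the cisplatin mean of 2.03 ± 0.01 (SD, n = 2) was rank 9 of 7332.

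SESN1 also read high in cisplatin, with 1.79 and 2.06, a mean of 1.92 ± 0.19 (SD, n = 2) at rank 14 of 7332. In 5-FU its sole value, from 1 of 4 arrays, was −0.71. It read 0.13 and 0.14 in cytarabine, 0.25 and 0.45 in paclitaxel and 0.22 and 0.24 in cytochalasin D. The cisplatin arrays thus lay above every other array, and the one 5-FU array lay below every other array.

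TOB1 showed a different order, high in 5-FU and not in cisplatin. It was the only one of the 4 genes with a value on all 12 arrays. In 5-FU it read 1.02 and 0.59 with treated RNA in channel 1 and 1.76 and 0.99 with treated RNA in channel 2. The labels number the arrays of both orientations alike, so those of a number are taken as 1 replicate. TOB1 averaged 1.39 in the first and 0.79 in the second, a mean of 1.09 ± 0.43 (SD, n = 2). The cisplatin arrays read 0.15 and 0.14, the cytarabine arrays −0.16 and −0.19, the paclitaxel arrays −0.14 and 0.13, and the cytochalasin D arrays 0.17 and 0.12. Every 5-FU array lay above every array of the other 4 drugs. With treated RNA in channel 1 the cisplatin mean of 0.14 was rank 1681 of 7332, whereas the 5-FU mean of 0.81 was rank 86 of 6251. The 2 orientations of 5-FU place a channel effect of −0.28 on arrays of TOB1 with treated RNA in channel 1, inside the range of −0.45 to 0.35 that holds the central 95% of 5123 features. Subtracting it would put TOB1 at 0.43 in cisplatin, 0.11 in cytarabine, 0.28 in paclitaxel and 0.43 in cytochalasin D, so its sign against untreated RNA in cytarabine and paclitaxel depends on that effect. The effect was measured on 5-FU arrays alone, and whether arrays of the other drugs share it was not tested. No channel effect could be measured for CDKN1A, PLK3 or SESN1. Mean log ratios of other genes given below are from arrays with treated RNA in channel 1, likewise with no channel effect subtracted.

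**Figure D1:**
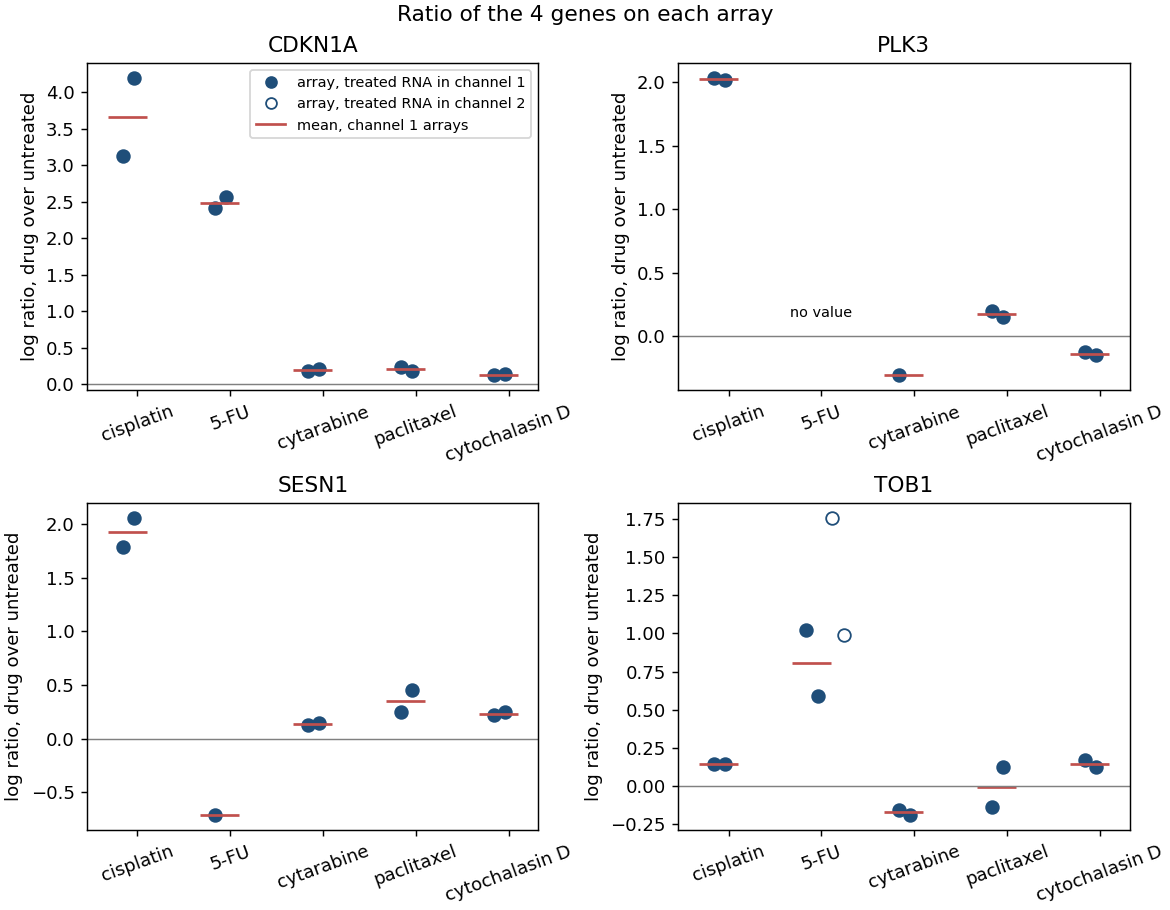
Log ratio of drug over untreated RNA (vertical axis) of CDKN1A, PLK3, SESN1 and TOB1 on each array, by drug (horizontal axis). Filled points are arrays with treated RNA in channel 1, open points arrays with treated RNA in channel 2, and red lines are means of the filled points. CDKN1A is high in cisplatin and 5-FU, PLK3 and SESN1 in cisplatin, and TOB1 in 5-FU.

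Set among all features, CDKN1A, PLK3 and SESN1 lay above the central 95% in cisplatin, which ran from −0.86 to 0.59, and CDKN1A and TOB1 lay above that of 5-FU, which ran from −1.11 to 0.63. In cytarabine, paclitaxel and cytochalasin D none of the 4 genes lay outside the central 95% of features. SESN1 in paclitaxel came nearest to its limit, with a mean of 0.35 where the central 95% ended at 0.36.

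**Figure D2:**
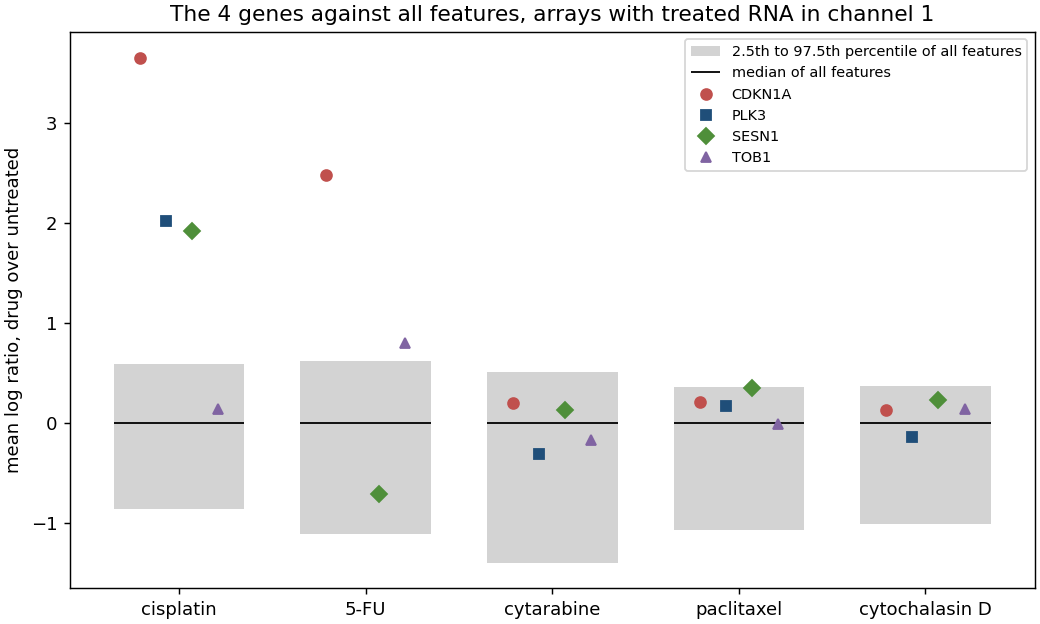
Mean log ratio of drug over untreated RNA (vertical axis) of the 4 genes on the arrays with treated RNA in channel 1, by drug (horizontal axis). Grey boxes span the central 95% of all features and black lines mark their median. CDKN1A lies above the box in cisplatin and 5-FU, PLK3 and SESN1 in cisplatin and TOB1 in 5-FU.

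Whether the drugs differ was tested on the 10 arrays with treated RNA in channel 1, since a channel effect shared by these arrays leaves the difference between 2 drugs. A limma model with 1 mean per drug was fitted to all features, and a moderated F tested the drug means. All 4 genes passed at an adjusted p under 0.05, as did 23.7% of the 7315 features tested. Adjusted p was 0.000455 for PLK3 (over 4 drugs, since 5-FU had no value), 0.000753 for SESN1, 0.000846 for CDKN1A and 0.016 for TOB1. By the size of F, PLK3 ranked 2, SESN1 30, CDKN1A 74 and TOB1 989. The rank of PLK3 is not like for like, since its F spans fewer drugs and arrays. MDM2, over 5 drugs, ranked 11 by F but had a smaller unadjusted p of that F (2.12e-07, against 1.24e-06 for PLK3). As the genes were chosen with these arrays known, such p-values measure differences against the spread between arrays and are no independent support.

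All 10 pairs of drugs were then compared, which gave 36 differences for the 4 genes, of which 21 passed with p adjusted over all features within each pair. The share of all features called in a single direction ran from 0% to 13.9% between pairs and is given with each pair below. As the genes were chosen with these arrays known, the count is a description. Adjustment over all features and all pairs together kept the same 21 and added the difference of PLK3 between cytarabine and paclitaxel (adjusted p = 0.0438). Differences are given as the first drug minus the second on the log ratio scale, with standard errors from limma.

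Cisplatin stood above each of cytarabine, paclitaxel and cytochalasin D in CDKN1A, PLK3 and SESN1. These are 3 of 4 genes in each pair, where 11.2%, 3.13% and 4.27% of all features were higher in cisplatin and 7.21%, 1.11% and 1.88% lower. CDKN1A differed by 3.46 ± 0.29 from cytarabine (11.0-fold, adjusted p = 0.000929), by 3.45 from paclitaxel and by 3.53 from cytochalasin D. PLK3 differed by 2.33 ± 0.10 from cytarabine (adjusted p = 0.000718, with 1 cytarabine array), by 1.85 from paclitaxel and by 2.16 from cytochalasin D. For SESN1 the differences were 1.79 ± 0.12 from cytarabine (adjusted p = 0.0009), 1.58 from paclitaxel and 1.69 from cytochalasin D. TOB1 did not pass between cisplatin and any of these 3 drugs. Its differences were 0.32 from cytarabine (95% interval −0.03 to 0.66), 0.15 from paclitaxel (−0.19 to 0.50) and −0.00 from cytochalasin D (−0.35 to 0.34), intervals that still allow changes of some size.

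5-FU stood above the same 3 drugs in CDKN1A and TOB1 and below them in SESN1. CDKN1A was higher by 2.29 ± 0.29 than in cytarabine (4.89-fold, adjusted p = 0.00154), by 2.28 than in paclitaxel and by 2.36 than in cytochalasin D. TOB1 was higher by 0.98 ± 0.15 than in cytarabine (1.97-fold, adjusted p = 0.00333), by 0.81 than in paclitaxel (adjusted p = 0.00948) and by 0.66 than in cytochalasin D (adjusted p = 0.0217). In these 3 pairs 10.8%, 7.07% and 6.92% of all features were higher in 5-FU. SESN1 was lower in 5-FU, with differences of −0.84 ± 0.15 from cytarabine (adjusted p = 0.00813), −1.06 from paclitaxel (adjusted p = 0.00452) and −0.94 from cytochalasin D (adjusted p = 0.00744), where 13.9%, 9.71% and 9.53% of features were lower. All 3 rest on 1 5-FU array and assume that it varies like the other arrays. The TOB1 difference from paclitaxel lost its call without paclitaxel replicate 1 (0.68, adjusted p = 0.0603). That from cytochalasin D lost it without 5-FU replicate 1 (0.44, adjusted p = 0.0601), cytochalasin D replicate 1 (0.68, adjusted p = 0.0869) or cytochalasin D replicate 2 (0.64, adjusted p = 0.101).

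Between cisplatin and 5-FU the 3 genes with a value in both passed the test, not in the same direction. SESN1 rests on 1 5-FU array, its error being borrowed from the other drugs, and the calls of CDKN1A and TOB1 are lost without single arrays. CDKN1A was higher in cisplatin by 1.17 ± 0.29 (2.25-fold, adjusted p = 0.0263, n = 2 each) and SESN1 by 2.63 ± 0.15 (6.21-fold, adjusted p = 0.00017, with 1 5-FU array), among 12.7% of features higher in cisplatin. TOB1 was lower in cisplatin, at −0.66 ± 0.15 (adjusted p = 0.0184), among 6.98% of features lower there. The CDKN1A call ended without 5-FU replicate 1 (difference 1.09) or replicate 2 (1.25), and the difference was 0.63 without cisplatin replicate 2. That last fit also drops the gap between the cisplatin arrays (SD 0.76, against 0.11 in 5-FU) from the error. Whether it passed is therefore no check of the call. The TOB1 call ended without 5-FU replicate 1 (−0.45, adjusted p = 0.054), cisplatin replicate 1 (−0.66, adjusted p = 0.0766) or cisplatin replicate 2 (−0.66, adjusted p = 0.0815). With both orientations of 5-FU averaged and the other arrays left as they were, the TOB1 difference was −0.95 (adjusted p = 0.0116). That value leaves the channel effect on the cisplatin arrays alone. With the channel effect also subtracted from the other drugs it was −0.66 (adjusted p = 0.0309). This size equals that of the main fit by construction, since the effect cancels, so neither value is a separate check of it.

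Among cytarabine, paclitaxel and cytochalasin D, 0 of 12 differences of the 4 genes passed in limma with p adjusted within each pair, with moderation or without it, and 2 had an unadjusted p under 0.05. Between cytarabine and paclitaxel 0% of 6985 features were called, while 1150 had an unadjusted p under 0.05, where about 349 would if none differed. Between cytarabine and cytochalasin D 0.815% were higher and 1.02% lower, and between paclitaxel and cytochalasin D 0.0557% were higher and 0.0418% lower. The 2 differences with a low unadjusted p were both of PLK3, at −0.48 for cytarabine minus paclitaxel (95% interval −0.73 to −0.23, adjusted p = 0.142 within the pair and 0.0438 over all pairs, with 1 cytarabine array) and 0.31 for paclitaxel minus cytochalasin D (0.10 to 0.51, adjusted p = 0.313). For CDKN1A the intervals of these 3 pairs ran from −0.68 to 0.74 at their widest, so smaller differences were not detectable in this fit. Its error is shared over all drugs and comes largely from the cisplatin arrays (SD 0.76). The SD was 0.02 in cytarabine, 0.05 in paclitaxel and 0.01 in cytochalasin D, so the width is not that of these drugs alone.

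**Figure D3:**
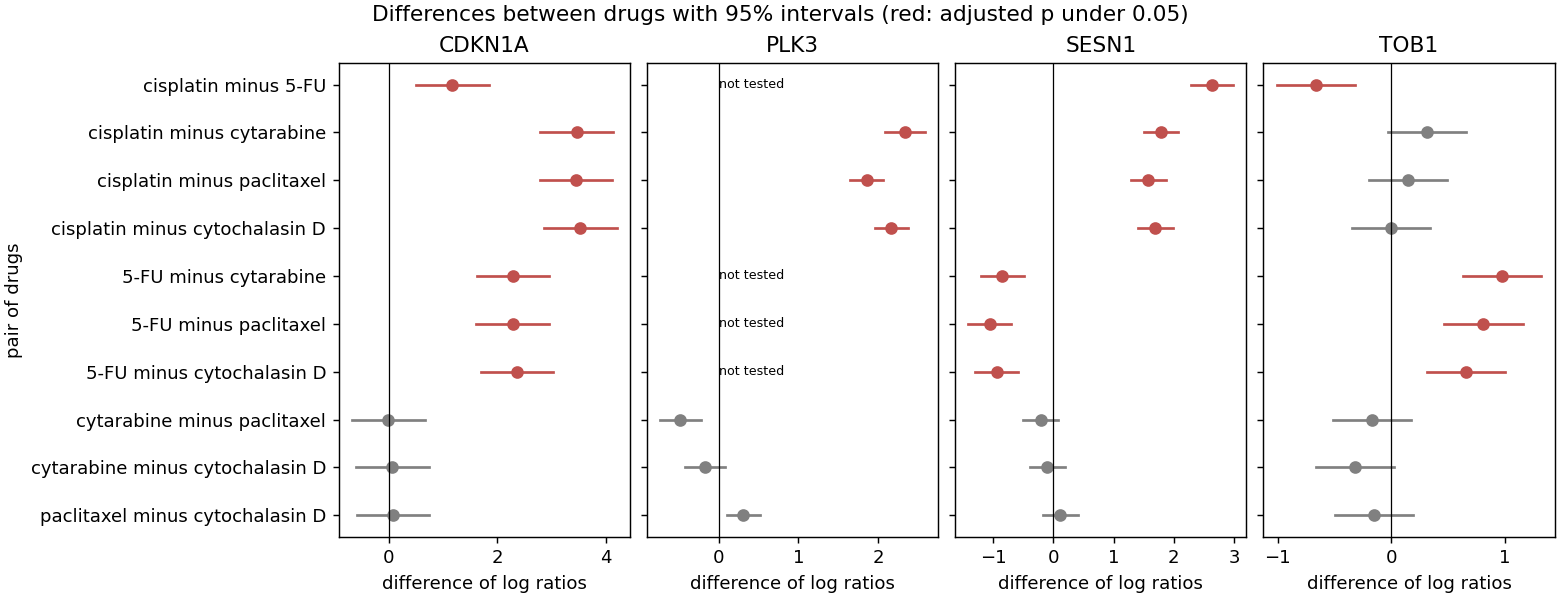
Difference of log ratios between 2 drugs (horizontal axis, first drug minus second) for the 10 pairs (vertical axis) and the 4 genes, with 95% intervals from limma. Red marks an adjusted p under 0.05. PLK3 has no 5-FU value and was not tested in those pairs, and no pair of the 3 lowest rows is red.

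The order of the mean ratios on these 10 arrays was cisplatin, 5-FU, paclitaxel, cytarabine and cytochalasin D for CDKN1A, with a tested gap after cisplatin and after 5-FU and none among the last 3. For SESN1 it was cisplatin, paclitaxel, cytochalasin D, cytarabine and 5-FU, with a gap after cisplatin and another before 5-FU, which rests on 1 5-FU array with no spread of its own. PLK3 ran cisplatin, paclitaxel, cytochalasin D and cytarabine, with a gap after cisplatin. TOB1 ran 5-FU, cytochalasin D, cisplatin, paclitaxel and cytarabine, with a gap after 5-FU, and its neighbours further down did not differ beyond their spread.

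The genes with the pattern most like each of the 4 were sought by Pearson's r across arrays, as a description, over arrays of which pairs share a drug. For CDKN1A, over 10 arrays and 3396 genes, these were the cell cycle kinase CDK6 (r = 0.967), MDM2 (0.966), the RNA-binding protein RBM15 (0.965), the death receptor FAS (0.950) and DDB2 (0.947), which recognises ultraviolet lesions. A high r says nothing of size, since the mean log ratio of CDK6 was 0.24 in cisplatin and 0.17 in 5-FU. For SESN1, over 9 arrays and 3785 genes, they were the RNA helicase DDX21 (0.980), the cytokine signalling inhibitor SOCS2 (0.979), CLINT1 (0.978), TIMM17A (0.966) and RGS2 (0.966). For TOB1, over 12 arrays and 2452 genes, they were the lysosomal activator GM2A (0.961), the nuclear receptor NR1D1 (0.941), GMIP (0.925), the haem-degrading enzyme HMOX1 (0.923) and TOX2 (0.923). HMOX1 had a mean log ratio of 0.06 in cisplatin and 2.13 in 5-FU, and RGS2, a regulator of G protein signalling, 1.68 in cisplatin and −0.90 in 5-FU. Others moved little: DDX21 and TIMM17A reached 0.26 and 0.22 in cisplatin. On the arrays with treated RNA in channel 1, GMIP and TOX2 had means below 0 with every drug, at −0.21 and −0.07 in 5-FU. All means here leave out the 5-FU arrays with treated RNA in channel 2, which do enter the r of TOB1. A channel effect shared with TOB1 may enter that r as well, which was not tested. The 9 arrays of SESN1 include only 1 of 5-FU. Where members of the 4 could be compared, none was near the top: TOB1 correlated with CDKN1A at 0.485 (rank 584) and with SESN1 at −0.302, and CDKN1A correlated with SESN1 at 0.657 (rank 447 of 3785). A list holds only genes with a value on all arrays of the gene it was made for. CDKN1A and SESN1 thus could not enter the list of TOB1, nor SESN1 that of CDKN1A, and PLK3 could enter none. PLK3 was left out, having 7 arrays with a value where 8 were required.

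Among other p53 targets of feedback, repair and death, all that differed between cisplatin and another drug were higher in cisplatin. Of 18 such genes tested, 10 were higher in cisplatin than in cytarabine, 9 than in paclitaxel and 10 than in cytochalasin D, with 0 lower, where 11.2%, 3.13% and 4.27% of all features were higher. The median differences were 0.81, 0.57 and 0.62, against 0.02, 0.01 and 0.00 over all features. Between cisplatin and 5-FU 9 of 16 were higher in cisplatin and 0 lower (median 0.61, against 0.02 over all features, of which 12.7% were higher). Of 16 genes, 3 were higher in 5-FU than in cytarabine (median difference 0.29, against −0.04 over all features), 2 than in paclitaxel (0.22, against −0.03) and 4 than in cytochalasin D (0.36, against −0.02), with 0 lower. Of all features 10.8%, 7.07% and 6.92% were higher in these pairs. Mean log ratios in cisplatin and 5-FU were 2.65 and 1.25 for MDM2, 1.67 and 0.60 for DDB2, and 1.58 and 0.35 for XPC, the damage sensor of nucleotide excision repair. In the other 3 drugs these means lay between −0.46 and 0.07. BBC3, which encodes the death protein PUMA, read 0.69 in cisplatin, −0.31 in cytarabine, 0.04 in paclitaxel and 0.13 in cytochalasin D, and had no value on the 5-FU arrays with treated RNA in channel 1. MDM2 and this list set the direction of all ratios, so their sign in 5-FU is no result. Among cytarabine, paclitaxel and cytochalasin D 0 of the 18 differed in limma in any pair, with 3 to 6 per pair at an unadjusted p under 0.05.

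**Figure D4:**
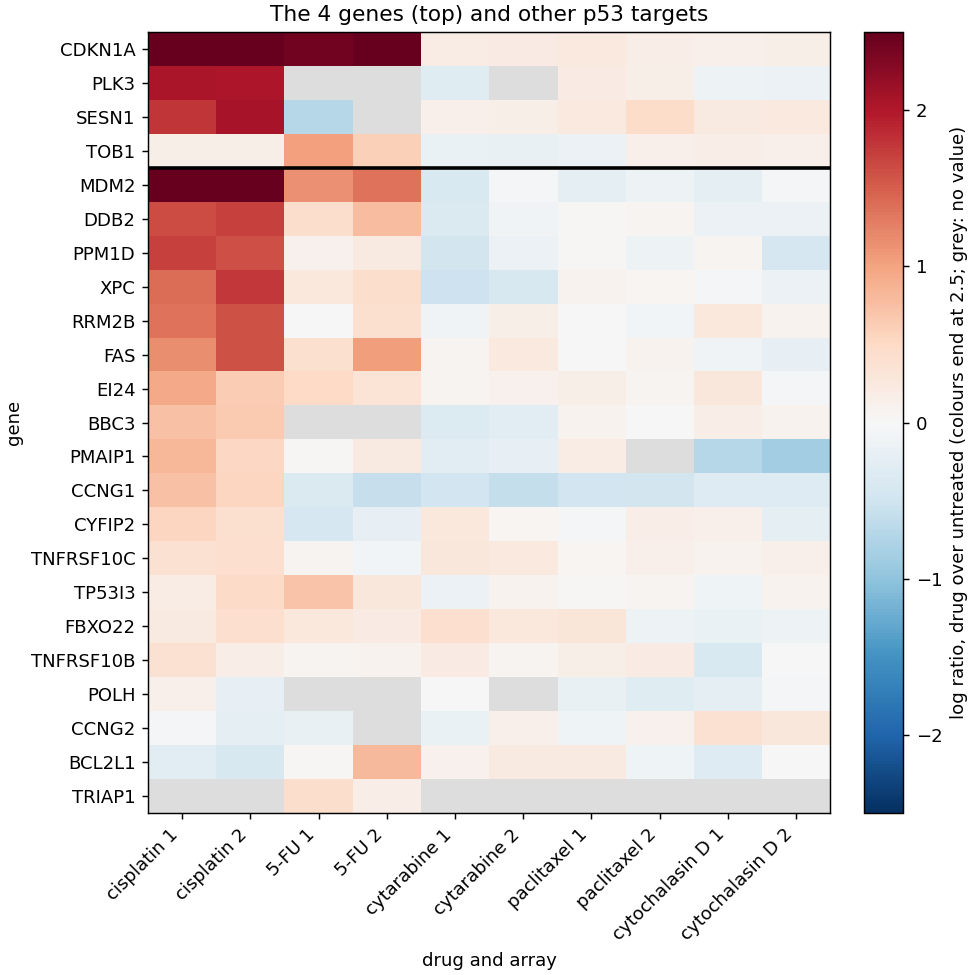
Log ratio of drug over untreated RNA (colour, ending at 2.5) of CDKN1A, PLK3, SESN1 and TOB1, above the line, and 19 other p53 targets, below it, on the arrays with treated RNA in channel 1 (horizontal axis, drug and array). Grey means no value. Most rows with deep red in cisplatin are paler in 5-FU, and TOB1 is red in 5-FU and near white in cisplatin.

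The cell cycle genes that p21 is known to lower through E2F and DREAM complexes were not lowest where CDKN1A was highest. In cisplatin their median log ratio over untreated RNA was 0.08 over 34 genes, with 18 above 0 and 11 below 0 on both arrays. In 5-FU the median was −0.20 over 29 genes, with 4 above 0 and 14 below 0 on both arrays, of 25 genes with both values. In cytarabine the median was 0.01, with 15 above 0 and 14 below 0 on both arrays of 31 genes. The median was −0.10 in paclitaxel and −0.18 in cytochalasin D, the latter close to that of 5-FU. In paclitaxel 6 were above and 16 below, and in cytochalasin D 5 were above and 21 below, each of 32 genes. The median over all features was −0.00 in cisplatin and 5-FU, with 36.6% above 0 and 36.4% below 0 on both arrays in cisplatin, and 35.3% and 34.1% in 5-FU. These shares of all features were 38.6% and 38.2% in cytarabine, 34.7% and 34.1% in paclitaxel, and 36.9% and 36.7% in cytochalasin D. Between the drugs, 11 of 29 were higher in cisplatin than in 5-FU and 0 lower, with a median difference of 0.42, where 12.7% of all features were higher and 6.98% lower. Cisplatin was higher in 11 and lower in 2 of 34 than cytarabine (11.2% and 7.21% of all features), higher in 2 and lower in 0 than paclitaxel (3.13% and 1.11%), and higher in 9 and lower in 0 than cytochalasin D (4.27% and 1.88%). 5-FU was higher in 3 and lower in 11 of 29 than cytarabine (10.8% and 13.9% of all features), higher in 1 and lower in 8 than paclitaxel (7.07% and 9.71%), and higher in 2 and lower in 7 than cytochalasin D (6.92% and 9.53%). The median differences of 5-FU from these 3 drugs were −0.26, −0.15 and −0.00, against −0.04, −0.03 and −0.02 over all features. AURKA, a mitotic kinase, had a mean log ratio of −0.24 in cisplatin and −1.51 in 5-FU, with −0.65, −0.51 and −0.65 in cytarabine, paclitaxel and cytochalasin D. BIRC5, the survivin gene, read −0.22 in cisplatin and −1.11 in 5-FU, and 0.16, −0.13 and −0.02 in those 3 drugs. MAD2L1, a spindle checkpoint gene, read 0.02 in cisplatin and −1.76 on the one 5-FU array with a value, and the chromatin protein HMGB2 −0.03 in cisplatin and −2.64 on one such array.

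Relatives and partners of the 4 genes were set beside the 23.7% of all features that passed the F. PLK1, the mitotic Polo-like kinase, had mean log ratios of −0.16 in cisplatin, −0.42 in 5-FU, −0.78 in cytarabine, −0.46 in paclitaxel and −0.41 in cytochalasin D, and passed the F over drugs (adjusted p = 0.0181). PLK4, which duplicates centrioles, did not pass (adjusted p = 0.371), nor did TOB2 (adjusted p = 0.95), BTG3 (adjusted p = 0.0949) or CDKN1B, the kinase inhibitor p27 (adjusted p = 0.176). Of 10 genes of the TOB/BTG family and the CCR4-NOT deadenylase machinery, 3 passed the F, PABPC4, CNOT6 and PAN2, which is near the share of all features. Of 11 genes around sestrins, AMPK and mTORC1, 2 passed, the mitochondrial peroxidase PRDX3 and MTOR, which is no more than the share of all features. In cisplatin PRDX3 read −0.15 and MTOR −0.20, while in 5-FU PRDX3 read −1.62 and MTOR −2.13 (1 array). In the other 3 drugs PRDX3 lay between −0.48 and −0.31, and MTOR between 0.03 and 0.25. Of the Polo-like and checkpoint kinases, ATM and PLK1 are the 2 of 5 that passed. ATM, which phosphorylates p53 after DNA breaks, read −0.78 in cisplatin, −0.04 in 5-FU, −1.61 in cytarabine, −1.30 in paclitaxel and −1.30 in cytochalasin D. The remaining genes listed for p53 growth arrest were CDKN1B, PML and RPRM (the last pair named after their values were seen). In limma 0 of 3 passed at an adjusted p under 0.05, and 1 of 3 at an unadjusted p under 0.05. PML had values for cisplatin and 5-FU alone and RPRM none for 5-FU on the arrays fitted, so only CDKN1B was tested over all 5 drugs. PLK2, SESN2, SESN3, BTG1, BTG2 and CDKN1C had no probe matched to them alone in the platform annotation, so they were not analysed.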

How the data were processed

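Each of 12 two-channel arrays set drug-treated against untreated H460 RNA. The authors deposited 1 ratio of the 2 channels for each probe, read here as log2. How spots were filtered and normalized is not given in the sources used here. Array medians were 0.00162 to 0.0252 as deposited and 0 after centring. Of 8170 probes 5930 match 1 gene, 79 several and 2161 none in the platform annotation. Probes of a gene were averaged, which with the unnamed probes gave 7739 features. Groups and channel orientation come from the labels. The 4 genes and all gene lists were chosen with earlier results of these data known.

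A mean per drug was fitted with limma 3.58.1 variance moderation in R 4.3.3 on the 10 arrays with treated RNA in channel 1, for features with at least 1 residual degree of freedom. F and pair tests used Benjamini-Hochberg adjusted p under 0.05. Both were run on simulated data with independent noise, and the outcome is not given here. Such data cannot show what shared untreated RNA or technical replicates would do to the p-values. Where a sample had no value it was left out of that gene's fit. Across features the arrays of a drug and orientation correlated at 0.627 to 0.819. Arrays of different drugs with treated RNA in channel 1 correlated at 0.101 to 0.725, and 5-FU arrays of opposite orientation at −0.527 to −0.488 as deposited. The number of arrays limits the precision.

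Genes named besides the 4 and MDM2 are up to 5 with the highest Pearson r to each, up to 4 per list with the largest F among those that passed, and family members on the array. Alternatives are the settings described in the closing section. Differences between replicate numbers correlated at −0.06 to 0.09 between drugs, with 0 of 10 pairs of drugs above 0.1, so the numbers were not taken to pair arrays.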

Additional observations from a re-analysis of the deposited data

How the results depend on the processing

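The F over drugs called 1732 of 7315 features, 1152 of 3521 when restricted to probes with a value on all 12 arrays (fewer features tested) and 936 without moderation. Leaving out each array in turn gave 1059 to 1586 calls, the fewest without cisplatin replicate 1 (1059) or 2 (1146). The 4 genes passed the F under every setting that could be fitted, except TOB1 without moderation (adjusted p = 0.0662); the cause was not tested. A replicate block left 1527 calls, changed no call of the 4 genes, and has no support from a pairing of the arrays. No difference between drugs that passed changed direction. Besides the calls lost without single arrays, without moderation the differences from cisplatin to 5-FU of CDKN1A (adjusted p = 0.0901) and TOB1 (adjusted p = 0.0577) and from 5-FU to cytochalasin D of TOB1 (adjusted p = 0.0698) no longer passed, and scaled arrays ended that of CDKN1A (adjusted p = 0.0566). With only the arrays of the 2 drugs, CDKN1A (adjusted p = 0.118) and TOB1 (adjusted p = 0.0772) between cisplatin and 5-FU, and TOB1 between 5-FU and paclitaxel (adjusted p = 0.0653) or cytochalasin D (adjusted p = 0.0889), did not pass. A minimum absolute difference of 1 dropped 6 of 21 calls. These were every call of TOB1, and those of SESN1 between 5-FU and cytarabine or cytochalasin D. Fitting single probes changed no call of the 4 genes, which have 1 probe each. Channel subtraction and probes with all values could be fitted for TOB1 alone.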
